A study of Mus musculus with 9 samples.

Results

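The genes described here are 9 Toll-like receptors, Tlr1, Tlr2, Tlr3, Tlr4, Tlr5, Tlr7, Tlr8, Tlr9 and Tlr13, and their co-receptor Cd14, in mouse liver. They were taken by name from the authors' deposited table, in which they make up 10 of 16755 genes. No limit on a measured value was used to pick them, but earlier results of these data were known. The table gives 1 mean of normalized counts for each of 3 groups, and each group holds RNA from 3 male mice, whose strain the labels give as C57BL/6 and the methods as C57BL/6J. All 3 groups carried Scd2f/f, a floxed allele of stearoyl-CoA desaturase 2. Control liver came from Scd2f/f mice that the labels call untreated, although the protocol text attached to these samples repeats the regimen of the treated groups. Scd2f/f TAL came from Scd2f/f mice that received 10 mg/kg of the carcinogen diethylnitrosamine (DEN) when 2 weeks old and, from 6 weeks, a diet rich in lard and cholesterol with added ethanol (Western alcohol diet, WAD). Scd2f/f;CC TAL, or CC TAL, came from mice under the same regimen that also carried Col1a1-Cre (CC), in which the Col1a1 promoter drives Cre, so that Scd2 is cut in cells that express this collagen gene, such as hepatic stellate cells and portal fibroblasts. The labels give 4 months of WAD and call the tissue liver, while the methods give a longer course and name it tumor-adjacent liver (TAL) in one place and NTL in another. No mice with Col1a1-Cre but without DEN and WAD were analysed here, so the transgene was compared only under treatment. Only group means were analysed, depth per mouse is unknown, and no difference below has a replicate check, an error or a p-value.

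Toll-like receptors sense microbial molecules and molecules released by damaged cells. The receptors on the cell surface bind lipids and proteins, while those in endosomes bind nucleic acids, and all but Tlr3 can signal through the adaptor Myd88 to NF-kB. In liver they are carried by Kupffer cells, other myeloid cells, endothelial cells and, at a lower level, hepatocytes and stellate cells, and Cd14 hands bacterial lipopolysaccharide to Tlr4.

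In the tissue as a whole, the hepatocyte transcript for albumin (Alb) had an authors' mean of 21300 normalized counts in control liver, 20900 in Scd2f/f TAL and 22700 in CC TAL, so the main transcript of hepatocytes was there in all groups. The targeted gene Scd2 had a mean of 2.46 in control liver, 6.47 in Scd2f/f TAL and 1.87 in CC TAL. The Scd2 mean was therefore lowest in the mice with Col1a1-Cre, 3.46-fold below Scd2f/f TAL.

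Most of the receptors were below or near the median gene in abundance. Before any correction for length and averaged over the 3 groups, the 10 genes ran from 0.629 normalized counts for Tlr9 to 7.07 for Tlr5, against a median gene of 3.96 in control liver and 4.22 in Scd2f/f TAL. All 10 had higher means in Scd2f/f TAL than in control liver, as did 53.4% of 13307 genes, and 8 of 10 had lower means in CC TAL than in Scd2f/f TAL, as did 48.9%. In no case did the mean of CC TAL go down to that of control liver. Tlr3 and Tlr5 were the exceptions, with their highest means in CC TAL. A change of at least 2-fold between group means was used as the limit for counts, and a gene entered the comparison with all genes at a mean of at least 0.5 over the 3 groups (13307 genes, with all 10 of these). Tlr1 and Tlr9 met it through their values in treated mice, since their control means were under 0.5. The same holds for some of the pathway and marker genes counted below.

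**Figure D1:**
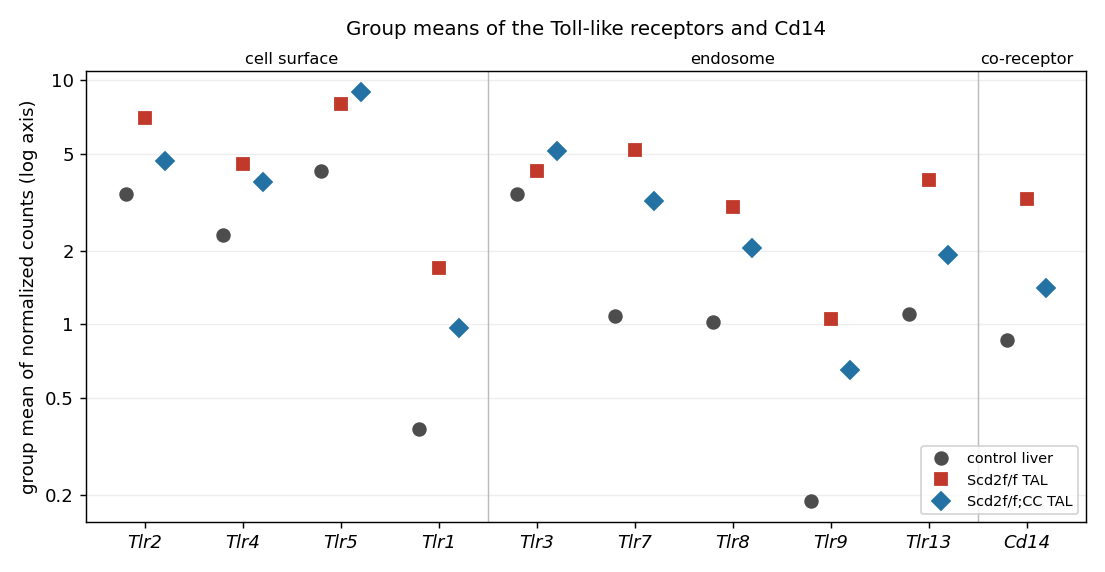
Authors' group means of normalized counts (vertical log axis, 1 point per group) for the Toll-like receptors of the cell surface and the endosome and for Cd14, in control liver (circles), Scd2f/f TAL (squares) and Scd2f/f;CC TAL (diamonds); no error bars are drawn because only group means were analysed. Every square lies above its circle, and the diamond lies between them in 8 of 10 genes, from Tlr9 with the lowest means to Tlr5 with the highest.

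Between Scd2f/f TAL and control liver, the comparison that addresses the regimen of DEN and WAD, 7 of 10 genes were at least 2-fold higher, where 7.46% of all 13307 genes were. The median log2 ratio of the 10 genes was 1.70, beside 0.04 over all genes. Among the 7722 genes with a mean of 0.5 to 10, the range that holds all 10, 11% were at least 2-fold higher. Tlr2 lay just inside the 2-fold limit with a ratio of 2.06, and Tlr4 just outside it with 1.94. With 1.5-fold as the limit, 9 of 10 were higher, where 14.3% of all genes were. With a pseudocount of 1, 3 of 10 were at least 2-fold higher, where 3.55% of all genes were, and the median was 0.92. The labels call the mice of one group separate samples. No spread between them was set beside these ratios, since only group means were analysed and the authors' own tests were set aside. These are bulk samples, so more cells of a type and more RNA per cell cannot be told apart.

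Among the receptors of the cell surface, Tlr2 pairs with Tlr1 to bind bacterial lipopeptides. Tlr2 (minus strand of chromosome 3, 83836272 to 83841768, mm10) had a mean of 3.42 in control liver, 7.04 in Scd2f/f TAL and 4.68 in CC TAL. Its partner Tlr1 (minus strand of chromosome 5, 64924679 to 64933564) had means of 0.373, 1.71 and 0.966 in the same order. The coding sequence of both genes lies in 1 exon. Both had the order control liver, CC TAL, Scd2f/f TAL from low to high, with Tlr1 4.58-fold higher in Scd2f/f TAL than in control liver and Tlr2 2.06-fold higher. Tlr6, the other partner of Tlr2, is the neighbour of Tlr1 at a distance of 18.5 kb and had means of 0.383, 0.683 and 0.541. Of the 50-base stretches in Tlr1 transcripts, 13.6% also occur in Tlr6, so reads from these stretches could have been split between both genes and their values are uncertain to that extent. No 50-base stretch of the other 9 genes occurs in another gene of the family.

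Tlr4, which recognizes lipopolysaccharide together with its partner protein Ly96 (MD-2), lies on chromosome 4 (plus strand, 66827584 to 66930285). Tlr4 had a mean of 2.33 in control liver, 4.52 in Scd2f/f TAL and 3.84 in CC TAL. Tlr5, the receptor for flagellin, lies on chromosome 1 (plus strand, 182954788 to 182976045) and had means of 4.24, 7.98 and 8.98. Both were somewhat under 2-fold higher in Scd2f/f TAL than in control liver, and between the treated groups both differed by less than 1.2-fold, Tlr4 downward and Tlr5 upward. Cd14 (minus strand of chromosome 18, 36725074 to 36726737) had a mean of 0.862 in control liver, 3.26 in Scd2f/f TAL and 1.41 in CC TAL. The 3.78-fold higher Cd14 mean in Scd2f/f TAL stood beside a ratio of 1.94 for Tlr4, the receptor that it serves.

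Of the endosomal receptors, Tlr7 and Tlr8 recognize single-stranded RNA, Tlr9 unmethylated CpG DNA, Tlr13 bacterial ribosomal RNA and Tlr3 double-stranded RNA. Tlr7, Tlr8 and Tlr13 lie on chromosome X, Tlr7 from 167304929 to 167330559 and Tlr8 from 167242696 to 167264330, both on the minus strand and 40.6 kb apart, and Tlr13 on the plus strand from 106143204 to 106160494. Tlr7 had a mean of 1.08 in control liver, 5.16 in Scd2f/f TAL and 3.20 in CC TAL. Its neighbour Tlr8 had means of 1.02, 3.02 and 2.06. Per kb of exon the pair had similar control levels, 0.265 for Tlr7 and 0.284 for Tlr8, and Tlr7 was 4.78-fold and Tlr8 2.96-fold higher in Scd2f/f TAL. Tlr13 had means of 1.10, 3.92 and 1.92 and was 3.56-fold higher in Scd2f/f TAL than in control liver. Tlr9 (plus strand of chromosome 9, 106222598 to 106226884) had a mean of 0.189 in control liver, 1.05 in Scd2f/f TAL and 0.649 in CC TAL. Its ratio of 5.56 was the highest of the 10 genes and higher than that of 99.3% of all genes tested, but it rests on the lowest control mean.

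Tlr3 (minus strand of chromosome 8, 45395665 to 45411081) went another way. Its mean was 3.43 in control liver, 4.27 in Scd2f/f TAL and 5.12 in CC TAL. Tlr3 had the highest control level of the endosomal receptors, 0.659 per kb of exon, was 1.24-fold higher in Scd2f/f TAL, the smallest ratio of the 10 genes, and was 1.20-fold higher again in CC TAL. Of the exon bases of Tlr3, 7.32% overlap an antisense gene, Gm45542, in GENCODE M21. The authors counted reads with another Gencode release, and whether that release held Gm45542 was not checked. Strand was not stated for the counting. The 4 other endosomal receptors were all at least 2-fold higher in Scd2f/f TAL than in control liver, with a median log2 ratio of 2.04. The 6 genes with control means under 1.5 were those with the 6 highest ratios, and the control mean is part of each ratio, so this order is in part built in.

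Comparison of levels between the genes needs a correction for length, and means were divided by the kb of exon sequence of each gene in GENCODE M21. On this scale, Tlr2 led in control liver with 1.13 normalized counts per kb and in Scd2f/f TAL with 2.34, while Tlr5 led in CC TAL with 1.87. Cd14, a short gene, had 0.498 per kb in control liver, 1.88 in Scd2f/f TAL and 0.814 in CC TAL, and moved from the fourth place to the second and back among the 10 genes. Tlr7 moved from the seventh place in control liver, with 0.265 per kb, to the fourth in Scd2f/f TAL, with 1.26 per kb. Tlr3 moved the other way, from the third place in control liver with 0.659 per kb to the seventh in Scd2f/f TAL with 0.820 per kb, and was back at the third in CC TAL with 0.983 per kb. Tlr9 came last and Tlr1 just above it in each of the groups. Neighbours in this order cannot be separated, since no spread between mice was analysed. With the length of the longest coding transcript in place of all exons, Tlr9 and Tlr1 kept the lowest places and Tlr2 and Tlr5 the first ones, while in Scd2f/f TAL Tlr5 passed Cd14 and Tlr4 went from the eighth place to the fifth.

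Sequences before the start sites were looked at because 8 of the genes moved in the same order between the groups. RefSeq promoters, 250 bases before to 50 bases after the start, were matched for 7 of the 10 genes, all but Tlr4, Tlr7 and Cd14 (build GRCm38.p6). The window of Tlr9 (chr9:106222348-106222647, plus strand) is shown for the largest ratio, that of Tlr13 (chrX:106143025-106143324, plus strand) for the largest decrease of a receptor in CC TAL, that of Tlr1 (chr5:64933509-64933808, minus strand) for a surface receptor that moved like them, and that of Tlr3 (chr8:45410331-45410630, minus strand) for one of the genes that did not, the other being Tlr5, whose window held neither motif marked here. Each is written 5′ to 3′ along the gene, and capitals mark matches on either strand to GAGGAA, a core motif of the myeloid factor PU.1, or to an NF-kB motif, read here as GGG, any 2 bases, TT, any base and CC.
Tlr9: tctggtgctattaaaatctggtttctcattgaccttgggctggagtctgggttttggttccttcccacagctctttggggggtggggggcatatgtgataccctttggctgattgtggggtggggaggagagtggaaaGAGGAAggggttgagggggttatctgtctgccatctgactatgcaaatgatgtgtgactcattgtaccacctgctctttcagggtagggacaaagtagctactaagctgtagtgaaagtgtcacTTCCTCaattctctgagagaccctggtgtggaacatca
Tlr13: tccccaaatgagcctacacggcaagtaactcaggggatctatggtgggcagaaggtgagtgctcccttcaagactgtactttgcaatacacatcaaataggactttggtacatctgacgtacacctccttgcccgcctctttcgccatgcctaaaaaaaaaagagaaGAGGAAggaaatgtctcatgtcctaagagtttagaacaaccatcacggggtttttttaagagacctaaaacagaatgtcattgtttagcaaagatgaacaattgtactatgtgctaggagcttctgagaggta
Tlr1: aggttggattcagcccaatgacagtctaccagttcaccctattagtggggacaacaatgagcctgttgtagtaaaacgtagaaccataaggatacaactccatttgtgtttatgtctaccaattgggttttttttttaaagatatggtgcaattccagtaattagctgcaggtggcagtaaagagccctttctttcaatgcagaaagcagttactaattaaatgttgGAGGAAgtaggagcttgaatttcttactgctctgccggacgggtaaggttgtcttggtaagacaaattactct
Tlr3: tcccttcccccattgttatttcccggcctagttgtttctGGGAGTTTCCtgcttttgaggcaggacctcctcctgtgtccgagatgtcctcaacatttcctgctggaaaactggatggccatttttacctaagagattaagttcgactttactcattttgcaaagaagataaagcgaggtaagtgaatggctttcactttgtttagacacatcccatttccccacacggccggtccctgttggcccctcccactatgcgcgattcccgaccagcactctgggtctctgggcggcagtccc

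Tlr1 has 2 start sites in RefSeq and so 2 windows, which makes 8 windows for 7 genes. The Tlr1 window printed is the one that held GAGGAA, and the other did not. GAGGAA or its complement was found in the windows of Tlr1, Tlr8, Tlr9 and Tlr13, 4 of the 8 windows, and in 28.3% of the 32851 promoters of the same length. In Tlr1 the match began 23 bases before the start site, in Tlr8 77 bases, in Tlr13 83 bases and in Tlr9 112 bases before it, with a further match in Tlr9 beginning 12 bases after it. The longer form GAGGAAGT, which contains the first, was found in Tlr1 and Tlr9 and in 3.20% of promoters, and AGGAAGT, which overlaps both, in the same genes and in 9.35%. The NF-kB motif was found in Tlr2 and Tlr3 and in 4.79% of promoters, and its stricter form with A after GGG in the same genes and in 1.20%. Tlr2, whose window is not printed, had the order of means of Tlr1, Tlr9 and Tlr13, but its window held no GAGGAA. The interferon element, read as GAAA on both sides of any 2 bases, was found in none of the 7 genes and in 3.44% of promoters. The other patterns searched were TTCNNNGAA for STAT factors (in Tlr1 and Tlr8, 8.30% of promoters), TGANTCA for AP-1 (in Tlr9, 7.81%), CCGGAA for ETS factors (in Tlr1, 14.9%), TTNNGNAA for C/EBP (in Tlr2, Tlr3, Tlr8, Tlr9 and Tlr13, 40.7%) and the GC box GGGCGG (in Tlr2, Tlr3 and Tlr5, 35.7%). TATAAA was found in Tlr8 and in 13.6% of promoters, the E-box CACGTG in Tlr1 and in 7.15%, and neither TGACGTCA (1.79%) nor CTAGGAAAT (0.295%) was found in any of the 7 genes. All 15 patterns were searched on both strands after the expression values had been seen, and a match describes letters, not binding.

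In CC TAL against Scd2f/f TAL, the comparison that addresses loss of Scd2 from Col1a1-expressing cells, 2 of 10 genes were at least 2-fold lower, where 2.1% of all 13307 genes were, and 0 of 10 were at least 2-fold higher, where 0.909% were. The median log2 ratio of the 10 genes was -0.64, beside 0.00 over all genes. Among the genes with a mean of 0.5 to 10, 3.19% were at least 2-fold lower. The genes past the limit were Cd14, with a mean 2.31-fold lower and a log2 ratio of -1.21, and Tlr13, with a mean 2.04-fold lower and a log2 ratio of -1.03. With a pseudocount of 0.1, Tlr13 had a log2 ratio of -0.99 and was no longer past the limit, and with a pseudocount of 1 neither gene was, at -0.82 for Cd14 and -0.75 for Tlr13. Of all genes tested, 1.34% had a lower ratio than Cd14 and 1.96% a lower ratio than Tlr13.

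The remaining receptors differed by less than 2-fold. Tlr1 was 1.77-fold, Tlr9 1.62-fold and Tlr7 1.61-fold lower in CC TAL, and Tlr2 had a log2 ratio of -0.59. With 1.5-fold as the limit, 6 of 10 genes were lower, where 6.27% of all genes were. Tlr8 was 1.47-fold and Tlr4 1.18-fold lower. Tlr5 and Tlr3 went the other way, with log2 ratios of 0.17 and 0.26. The endosomal receptors had a median log2 ratio of -0.69 and those of the cell surface one of -0.41, and the difference between these classes was not tested. Both comparisons contain the mean of Scd2f/f TAL, and an error in it would move both ratios, in opposite directions.

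Between CC TAL and control liver, all 10 genes had higher means, as did 54.8% of all genes, and 5 of them were at least 2-fold higher, where 5.24% of all 13307 genes were and 7.37% of those with a mean of 0.5 to 10. The 5 genes were Tlr9, 3.43-fold higher, Tlr7, 2.96-fold, Tlr1, 2.59-fold, Tlr5, 2.12-fold, and Tlr8, 2.02-fold. Tlr8 fell short of the limit with centring on the median gene, at a log2 ratio of 0.97, and with a pseudocount of 0.1, at 0.95, which left 4 genes. Cd14 was 1.64-fold, Tlr13 1.75-fold and Tlr2 1.37-fold higher, so that genes far apart in the comparison of Scd2f/f TAL with control liver, such as Cd14 and Tlr4 with a ratio of 1.65, lay side by side here. The median log2 ratio was 0.91, beside 0.05 over all genes. With 1.5-fold as the limit, 8 of 10 were higher, where 12.4% of all genes were. Control liver enters this comparison and that of Scd2f/f TAL alike.

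Beyond the receptors, roles in the pathway differed in how many genes passed the limit. Of the other 66 pathway genes analysed, 59 had a mean of at least 0.5, and 20 of these were at least 2-fold higher in Scd2f/f TAL than in control liver, and 3 were at least 2-fold lower in CC TAL than in Scd2f/f TAL. Over all genes of at least that mean the shares were 7.46% and 2.1%. Without the filter, 25 and 8 of the 66 genes were past the limit, beside 9.37% and 4.07% of all genes. Among proteins that bind ligands or assist receptors, Cd180, a receptor homolog, had means of 0.788, 4.43 and 3.36 in control liver, Scd2f/f TAL and CC TAL, and its partner Ly86 means of 1.03, 4.45 and 2.93. The scavenger receptor Cd36, which works with Tlr2, had means of 23.7, 138 and 88.5, and lipopolysaccharide-binding protein (Lbp), which loads Cd14, means of 25.2, 56.3 and 55.7. Ly96 had means of 2.10, 1.87 and 2.27 and Hmgb1, a released nuclear protein that can act as a ligand, means of 67.5, 61.6 and 60.9. Between the treated groups Lbp had a log2 ratio of -0.02, beside -1.21 for Cd14, and Ly96 stayed within 1.3-fold in each comparison.

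For the endosomal receptors, the chaperone Unc93b1, which delivers them, had means of 9.71 in control liver, 19.9 in Scd2f/f TAL and 15.4 in CC TAL. Cathepsin S (Ctss), a protease that can process these receptors, had means of 9.84, 55.1 and 30.5, and the endosomal transporter Slc15a3 means of 1.54, 7.16 and 5.13. These followed the order of Tlr7, Tlr8, Tlr9 and Tlr13. In the same list, Slc15a4 had means of 8.11, 9.87 and 11.7 and Ctsl means of 243, 249 and 259. Both were highest in CC TAL and did not follow that order. The folding factors Cnpy3 and Hsp90b1, used by most cells, had log2 ratios of -0.02 and -0.56 in Scd2f/f TAL against control liver. Of the 10 chaperones and processing genes analysed, 4 were at least 2-fold higher in that comparison and 0 were at least 2-fold lower in CC TAL against Scd2f/f TAL.

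No adaptor or kinase was 2-fold higher or lower in Scd2f/f TAL than in control liver. Myd88, the adaptor of nearly all these receptors, had means of 5.98, 7.65 and 6.83 in control liver, Scd2f/f TAL and CC TAL, and Ticam1 (TRIF), the adaptor of Tlr3, means of 8.70, 7.89 and 6.94. Ticam2, which links Ticam1 to Tlr4, came nearest to the limit among 6 adaptors, with means of 0.249, 0.487 and 0.519 and a log2 ratio of 0.97. It was past the limit in CC TAL against control liver, at 1.06, but its mean over the groups was under 0.5. None of 15 kinases and ubiquitin ligases, from Irak1 and Irak4 to Traf6 and Tbk1, differed by 2-fold in any of the 3 comparisons, and their median log2 ratio was 0.09 in Scd2f/f TAL against control liver and -0.01 in CC TAL against Scd2f/f TAL. The largest log2 ratio among them was 0.77, for Tab2, in the first comparison.

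Among transcription factors, Spi1, Relb and Irf8 had the highest ratios of Scd2f/f TAL to control liver. Spi1, which encodes PU.1 of myeloid and B cells, had a mean of 0.976 in control liver, 5.30 in Scd2f/f TAL and 3.76 in CC TAL. Irf8, another factor of myeloid cells, had means of 2.17, 7.17 and 4.44, and Relb, a subunit of NF-kB, means of 0.526, 2.32 and 1.32. The broadly used Rela, Nfkb1 and Irf3 had log2 ratios of 0.22, 0.12 and 0.02 in Scd2f/f TAL against control liver. Irf5 had the lowest log2 ratio of the 10 factors in that comparison, -0.31, and Nfkb2 had one of 1.05. Of 10 factors, 5 were at least 2-fold higher in that comparison, and 0 were at least 2-fold lower in CC TAL against Scd2f/f TAL.

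Among inhibitors of the pathway, Tnfaip3 (A20), an NF-kB target that removes ubiquitin from signaling proteins, had means of 1.78, 7.70 and 2.92 in control liver, Scd2f/f TAL and CC TAL, with a log2 ratio of -1.40 between the treated groups. It was the 1 gene of 10 inhibitors past 2-fold in that comparison. Irak3, which restrains Irak kinases in macrophages, had means of 0.813, 1.90 and 1.26, and the broadly used Tollip means of 26.3, 23.3 and 24.7. Among targets that the receptors induce, 8 cytokines and chemokines and the prostaglandin synthase Ptgs2, Ccl2 had means of 0.172, 1.72 and 0.715 and Cxcl10 means of 0.739, 5.97 and 3.94. Cxcl1 had means of 11.8, 17.5 and 5.04, with the lowest in CC TAL. All 9 targets analysed were lower in CC TAL than in Scd2f/f TAL, 7 of them by at least 2-fold, where 4.07% of genes were without a filter on the mean. But 5 of the 9 had a mean under 0.5 over the groups, among them Tnf with 0.132, 0.579 and 0.280, and of the other 4 targets 2 were at least 2-fold lower, beside 2.1% of genes above that mean.

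**Figure D2:**
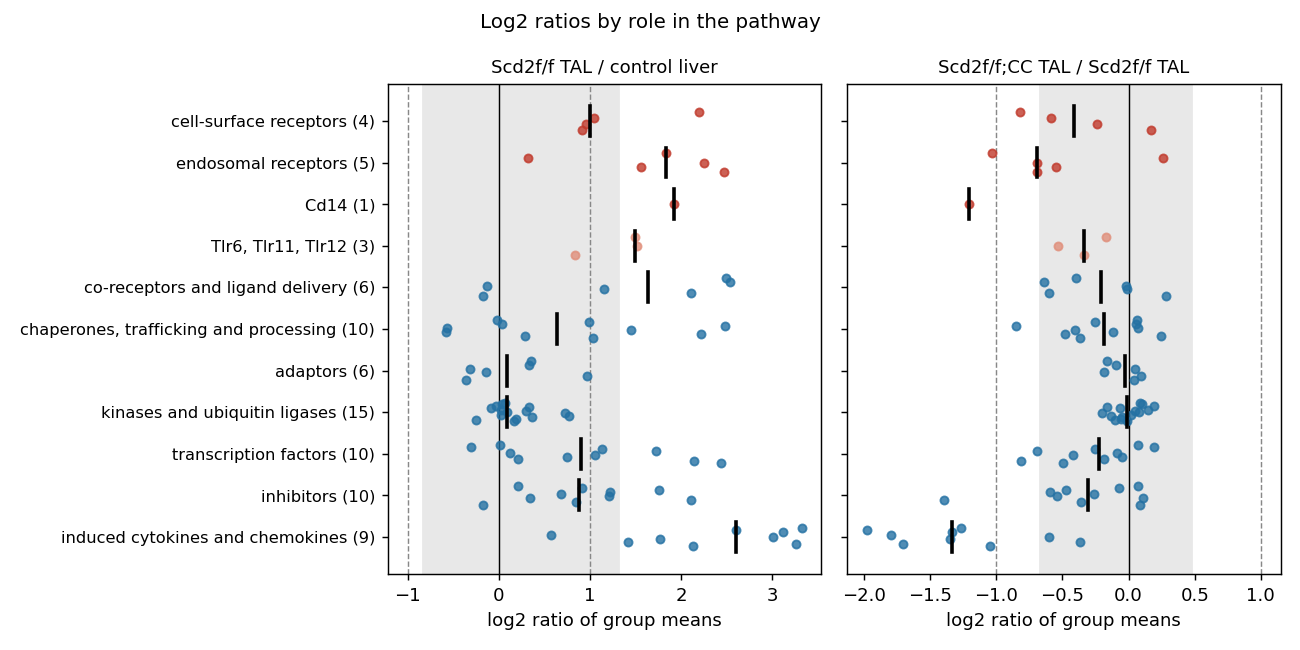
Log2 ratios of authors' group means (horizontal axis, 1 point per gene) by role in the pathway, with Scd2f/f TAL against control liver on the left and Scd2f/f;CC against Scd2f/f TAL on the right, with the number of genes in brackets. Bars mark medians, the grey band the middle 90% of 13307 genes and dashed lines 2-fold. On the left panel Cd14 (1.92) and the endosomal receptors other than Tlr3 (0.32) lie to the right of 2-fold. The median of all 5 endosomal receptors, Tlr3 included, is 1.83. The kinases cluster near 0 on both panels. The row of cytokines includes Ptgs2.

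Markers of immune cells that carry these receptors were higher in Scd2f/f TAL as well, while those of other liver cells mostly stayed under 2-fold. Without a filter on the mean, as the markers are counted here, 9.37% of all genes were at least 2-fold higher in Scd2f/f TAL than in control liver. Of 6 Kupffer cell markers, all 6 were at least 2-fold higher in Scd2f/f TAL than in control liver, with a median log2 ratio of 1.77, and their summed mean was 63.4 in control liver, 240.8 in Scd2f/f TAL and 219.1 in CC TAL, with Cd5l the most abundant. Of 9 monocyte and macrophage markers, all 9 were at least 2-fold higher, 8 of them with a mean of at least 0.5 over the groups, with a median of 2.15 and summed means of 46.7, 192.9 and 132.9, led by Lyz2. Of the 4 neutrophil markers analysed, led by S100a9, all 4 were at least 2-fold higher, with summed means of 1.18, 4.74 and 3.68. The 3 of them with a mean of at least 0.5 met it through treated mice. Their control means were under 0.5 (S100a8 0.21, S100a9 0.355 and Csf3r 0.477). The 4 T cell markers, led by Cd3e, summed to 0.674, 2.81 and 1.47. No marker analysed was at 0 in any group, and Mpo, Ly6g and Retnlg were not analysed here. B cell markers, led by Cd79b, summed to 0.877, 1.71 and 1.87, and 2 of 4 were at least 2-fold higher in Scd2f/f TAL than in control liver. Of conventional dendritic cell markers 3 of 5 were, or 1 of the 3 with a mean of at least 0.5. Of plasmacytoid dendritic cell markers 1 of 3 was, or 0 of the 2 with that mean. In the same comparison 1 of 5 sinusoidal endothelial markers was at least 2-fold higher, with a median of 0.44, 0 of 5 hepatocyte markers, with a median of -0.03, and 2 of 6 stellate cell and fibroblast markers, with a median of 0.52. The part of these cells in the higher receptor means was not tested.

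Between the treated groups the marker lists differed. Kupffer cell markers had a median log2 ratio of -0.15 in CC TAL against Scd2f/f TAL. Of these 6 markers 4 were lower and 0 were at least 2-fold lower. Clec4f, a lectin of resident Kupffer cells, had means of 71.2 in Scd2f/f TAL and 71.7 in CC TAL, and Timd4, another resident marker, 4.81 and 5.94. The 4 lower ones were Marco, Vsig4, Cd5l and Adgre1, with log2 ratios of -0.45, -0.29, -0.20 and -0.10. Monocyte and macrophage markers had a median of -0.53, near the -0.64 of the receptors and Cd14, with 9 of 9 lower and 1 of them, Cx3cr1, at least 2-fold lower, from 2.54 to 0.482. Conventional dendritic cell markers had a median of -0.78, or -0.36 over the 3 of 5 with a mean of at least 0.5, with Itgax going from 3.66 to 1.12, and summed means of 4.26 in control liver, 9.68 in Scd2f/f TAL and 6.23 in CC TAL, where Zbtb46 was the most abundant. T cell markers had a median of -0.97, but 1 of these 4, Cd3e, had a mean of at least 0.5, at -1.20. Neutrophil markers had a median of -0.32, and all 4 B cell markers, each with a mean under 0.5, were higher in CC TAL, with a median of 0.14. Of plasmacytoid dendritic cell markers, of cells known to carry Tlr7 and Tlr9, Siglech had means of 0.197, 0.409 and 0.270, while Bst2, which other cells also express, made up most of the sums of 30.4, 57.9 and 49.8, and the median was -0.22, or -0.07 without Siglech, whose mean was under 0.5. Stellate cell and fibroblast markers, led by Reln, had a median of -0.90 and summed to 109.7, 162.7 and 105.8, sinusoidal endothelial markers, led by Stab2, had a median of -0.09 and summed to 91.5, 114.5 and 117.8, and cholangiocyte markers, led by Sox9, had a median of -1.87 and summed to 6.37, 8.04 and 4.31. Hepatocyte markers had a median of 0.20. At least 2-fold lower were 3 of 6 stellate cell and fibroblast markers, 3 of 4 cholangiocyte markers and 2 of 4 T cell markers. So were 1 of 5 conventional dendritic cell markers and 1 of 4 neutrophil markers, beside 4.07% of all genes without a filter on the mean. With a mean of at least 0.5, these counts were 3 of 6, 2 of 3, 1 of 1, 1 of 3 and 0 of 3, beside 2.1% of all genes. The part of these cells in the lower receptor means was not tested either.

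**Figure D3:**
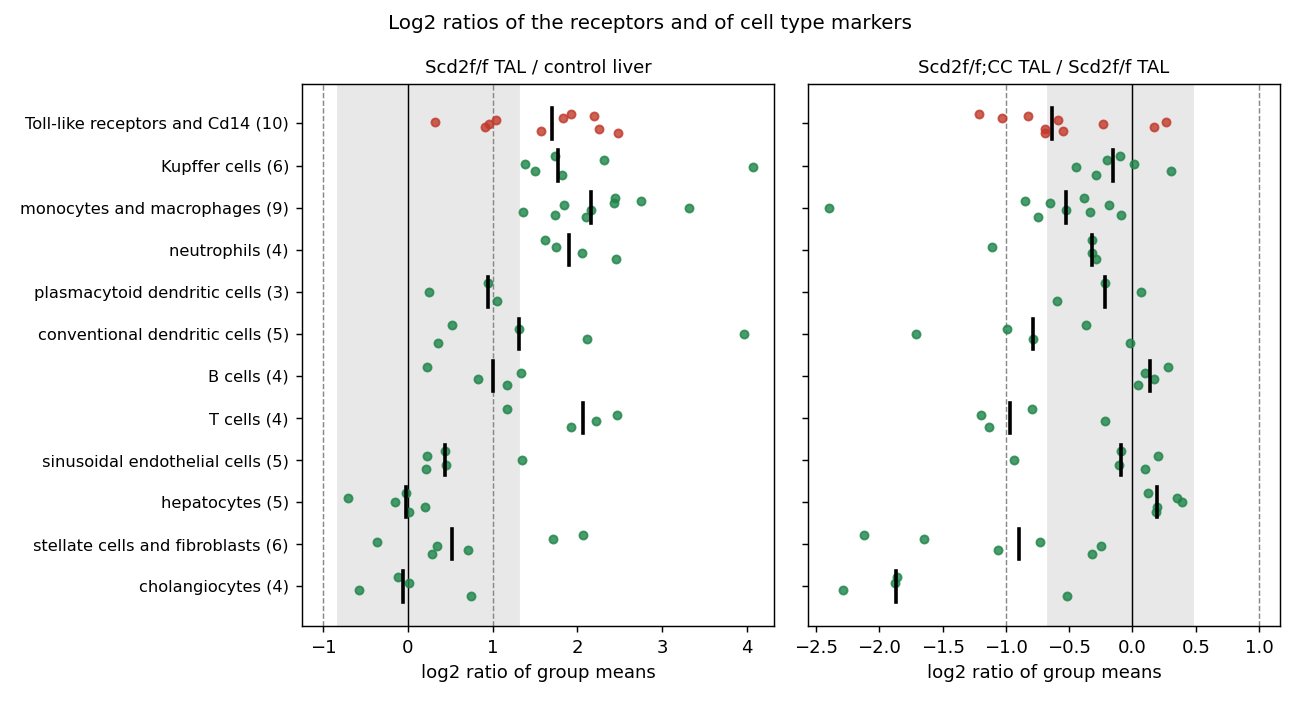
Log2 ratios of authors' group means (horizontal axis, 1 point per gene) for the Toll-like receptors with Cd14 and for markers of liver cell types, in the same comparisons, bands and lines as in the plot by pathway role. On the left 6 of the 10 receptor points (median 1.70 over all 10) lie within the range of Kupffer cell and macrophage markers, and Tlr2, Tlr3, Tlr4 and Tlr5 lie below it. On the right their median of -0.64 lies below that of Kupffer cell markers, -0.15, and near that of monocyte and macrophage markers, -0.53.

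Set against Csf1r, the receptor of macrophage growth factor with means of 17.0 in control liver, 60.8 in Scd2f/f TAL and 53.5 in CC TAL, all log2 ratios shift by the same amount, that of Csf1r. Relative to Csf1r, 4 genes were higher and 6 lower in Scd2f/f TAL than in control liver, with a median log2 ratio of -0.14, which says only how many had a ratio above that of Csf1r. Tlr13 made up 6.47% of the Csf1r mean in control liver, 6.45% in Scd2f/f TAL and 3.59% in CC TAL, and Cd14 5.07%, 5.36% and 2.64%. Tlr3, in contrast, went from 20.2% in control liver to 7.02% in Scd2f/f TAL, and Tlr5 from 24.9% to 13.1%. In CC TAL against Scd2f/f TAL the log2 ratios relative to Csf1r were -1.02 for Cd14 and -0.85 for Tlr13. Over all 10 genes, the median in that comparison was -0.45 relative to Csf1r and -0.54 relative to Adgre1 (F4/80), with 8 of 10 lower in both. Relative to other macrophage genes, chosen after their values were seen, this did not hold: the median was 0.11 relative to Lyz2, with 3 of 10 lower, and 0.01 relative to Cd68, with 5 of 10 lower. Cd14 and Tlr13 still had ratios below 0, at -0.46 and -0.28 relative to Lyz2 and at -0.56 and -0.38 relative to Cd68. The levels of the receptors per macrophage were not measured by these quotients, and their direction depended on the gene they were set against.

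**Figure D4:**
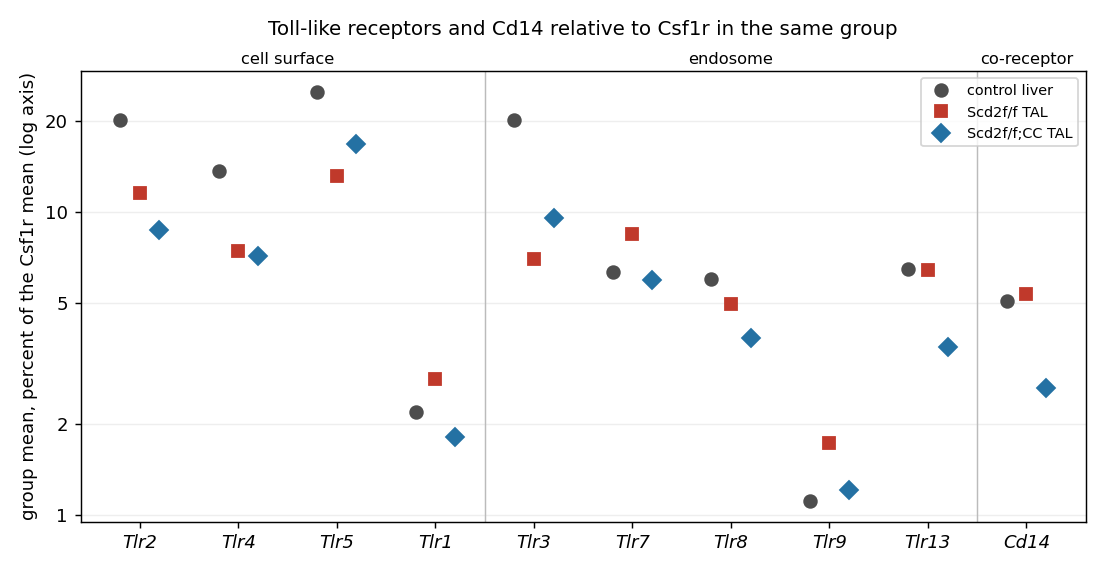
Authors' group means of the Toll-like receptors and Cd14 as a percentage of the Csf1r mean of the same group (vertical log axis, 1 point per group) in control liver (circles), Scd2f/f TAL (squares) and Scd2f/f;CC TAL (diamonds). Tlr2, Tlr3, Tlr4, Tlr5, Tlr8 and Tlr13 lie lower in both treated groups than in control liver, Tlr13 by the least in Scd2f/f TAL (6.47% and 6.45%), and in Scd2f/f;CC TAL all but Tlr9 lie below control liver.

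The remaining receptors of the family, Tlr11 and Tlr12, which recognize profilin of protozoa in mice, had means of 0.117, 0.329 and 0.293 and of 3.42, 9.80 and 6.78 in control liver, Scd2f/f TAL and CC TAL. Tlr12 thus had the order of most of the 10 genes, and its level per kb in Scd2f/f TAL, 3.08, was above that of each of them. Among 11008 protein-coding genes that averaged 1 or more, the 5 whose pair of log2 ratios lay closest to the median pair of the 10 genes were Fam105a, Adcy7, Arhgap30, Cmklr1 and Runx1, at distances from 0.02 to 0.04 on the log2 scale. Cmklr1, for example, had means of 1.19 in control liver, 3.95 in Scd2f/f TAL and 2.58 in CC TAL. Likeness over 3 group means is a description of the levels only.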

How the data were processed

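Libraries of polyadenylated RNA were sequenced and processed by the authors. The submitters' processing notes name STAR 2.6.1, Partek 6 and mm10. The authors quantified reads per gene of Gencode M3 by the E/M method of Partek and normalized them to the upper quartile. The deposited values analysed here are signal values, least-squares means of normalized counts for each group of 3 mice, with 3 significant digits. A further column, which the header names as the Scd2f/f TAL mean in the other comparison, was not used (1 column). The table also holds p-values, false discovery rates, ratios and fold changes of the authors' own comparisons, which were not used.

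Ratios of group means were computed without a pseudocount for all 16755 genes, with Python 3.11.15, NumPy 2.4.6 and pandas 2.3.3, and figures were drawn with Matplotlib 3.10.9. Since 1 mean per group was used and the authors' own tests were set aside, no test, error or interval was computed, and a planned range over single mice could not be computed. In GENCODE M21, 16171 symbols were found, 99.98% of them at an overlapping position, and coordinates are those deposited (mm10). The genes, lists and comparisons were chosen with earlier results of these data known. The genes named are the 10 genes, Scd2, the 5 of most similar pattern and examples from each list. The examples were picked for a high or low value or for their role, after their values were seen. Not every called, highest or lowest gene of a list is named. Alternatives were pseudocounts of 0.1 and 1, a 1.5-fold limit, other filters for the background, protein-coding genes alone and centring on the median gene. The steps were tested on simulated data.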

Additional observations from a re-analysis of the deposited data

How the results depend on the processing

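With centring on the median gene all 10 genes kept the direction of their ratio in all 3 comparisons, whereas a pseudocount cannot turn a direction. Counts past the limit moved with the pseudocount, because the means are low. With 1 added to each mean, 3 genes instead of 7 were at least 2-fold higher in Scd2f/f TAL than in control liver and the median log2 ratio was 0.92, 0 instead of 2 were at least 2-fold lower in CC TAL than in Scd2f/f TAL, and 1 instead of 5 was at least 2-fold higher in CC TAL than in control liver. The shares of all genes were then 3.55%, 0.639% and 1.99%. With 0.1 added, 1 gene was at least 2-fold lower in CC TAL than in Scd2f/f TAL, since Tlr13 reached -0.99, where 1.71% of all genes were. With a 1.5-fold limit, 6 genes were lower in CC TAL than in Scd2f/f TAL and 8 were higher in CC TAL than in control liver. When only means of 1 or more were kept, which leaves out Tlr9, the counts were 6, 2 and 4, beside 6.4%, 1.54% and 4.51% of all genes. Without the filter on the mean, 4.07% of all genes were at least 2-fold lower in CC TAL than in Scd2f/f TAL. No paired analysis was possible because the columns hold group means, and leaving out single mice could not be done for the same reason.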

Other observations

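Sensors of nucleic acids and bacterial products in the cytosol, a list of 12 genes added after the data had been seen, were at least 2-fold higher in Scd2f/f TAL than in control liver in 5 cases, where 9.37% of all genes were without a filter on the mean. Of the 10 with a mean of at least 0.5, 3 were at least 2-fold higher, beside 7.46% of genes above that mean. These 3 were Ifi204, Tmem173 and Aim2, with control means of 4.22, 0.592 and 0.391. Aim2 thus met the filter through its values in treated mice. The 10 sensors had a median log2 ratio of 0.62 in Scd2f/f TAL against control liver and of 0.08 in CC TAL against Scd2f/f TAL. The RNA sensors Ifih1 (MDA5) and Ddx58 (RIG-I) had log2 ratios of 0.10 and 0.21 in Scd2f/f TAL against control liver and of 0.04 and 0.11 between the treated groups, beside 0.32 and 0.26 for Tlr3, which also binds double-stranded RNA. Tmem173 (STING), the adaptor for cytosolic DNA, had a mean of 0.592 in control liver, 1.60 in Scd2f/f TAL and 0.910 in CC TAL, and Aim2, another DNA sensor, means of 0.391, 1.13 and 0.887. Whether these differences exceed the spread between mice was not tested.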
